A study of Mus musculus with 18 samples.

Results

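The second of 2 tetracycline-inducible siRNAs against nucleolin was examined by comparing its cell line, called Ncl-2, with and without induction. The 6 arrays compared were the 3 of the Ncl-2 line with tetracycline (Tc) and the 3 without it, paired by replicate number, out of 18 arrays in the study. The probes examined were those with a detection p below 0.05 on all 3 arrays of at least 1 of these groups, 17495 of 45281 probes (38.6%). Of these, 15038 met the limit in both groups, 1263 only with Tc and 1194 only without. The probe just inside the limit was one for Txndc11 (detection p of 0.0491) and the probe just outside it was one for 4930455G09Rik (detection p of 0.0502).

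All cells were CGR8, a mouse embryonic stem (ES) cell line of strain 129P2/Ola, with a stably integrated Tc-inducible siRNA construct, and all were kept for 3 days with or without Tc. Besides the Ncl-2 cells with and without Tc, the study holds a line with the first nucleolin siRNA (Ncl-1) and a line with an siRNA against EGFP, a jellyfish-derived protein that mouse cells do not encode, each also with and without Tc and with 3 arrays a group. The labels do not say whether a line is 1 clone or a pool, or whether replicates were separate cultures, so the p-values speak of the scatter of these 3 samples a group alone, and that scatter may be technical. Every Ncl-2 cell, with or without Tc, carries the construct. The question the design poses is which genes nucleolin regulates in ES cells, and here how far a second siRNA gives the same answer as the first.

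Nucleolin (Ncl) is one of the most abundant proteins of the nucleolus, the nuclear body where ribosomal RNA is transcribed and assembled into ribosomes, and it binds RNA, histones and ribosomal RNA genes. Disturbance of the nucleolus is known to release ribosomal proteins that bind Mdm2, the ubiquitin ligase that keeps p53 low, and p53 then raises genes of cell cycle arrest and death. ES cells are held in a naive state by a small set of transcription factors, and a minor share of them in culture passes through a state with transcripts of the two-cell embryo. The arrays measure RNA from a whole culture, so fewer cells of a type and less RNA per cell cannot be told apart.

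The 6 Ncl-2 arrays detected 18099 to 21015 probes (40.0% to 46.4%) with a mean raw intensity of 280 to 837 units; precision is limited by there being 3 arrays a group. Replicate 3 stood apart in all 6 groups, along the first principal component (47.7% of the variance), while the second (27.3%) set the Tc arrays of both nucleolin lines apart from the rest. Arrays with the same replicate number deviated from their group means together, with r of 0.80, 0.65 and 0.88 across probes for the 3 Ncl-2 pairs, and the number was kept as a block in the fit. Signals are log2 values after background correction and quantile normalization, and changes are log2 differences, with Tc minus without Tc, ± the standard error of a limma fit to all 18 arrays. In what follows a gene is said to have risen or fallen only if its adjusted p was below 0.05 in that fit and in each of 18 further fits that left out 1 array. List counts without the replicate block or without some arrays use the adjusted p of that 1 fit. They compare with the counts by adjusted p alone, not with the numbers that rose or fell.

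Nucleolin mRNA itself fell to 4.83% of its uninduced level. Ncl (Entrez Gene 17975) had log2 signals of 7.12, 6.42 and 7.43 with Tc, against 10.93, 11.39 and 11.77 without, a change of -4.37 ± 0.22 (limma adjusted p = 3.8e-09). Its level with Tc was 6.99 ± 0.51 and without Tc 11.36 ± 0.42 (SD, n = 3 each), and all induced arrays lay below all uninduced ones. A second Ncl probe changed by -4.47. Npm1, which encodes the nucleolar chaperone nucleophosmin, was among the brightest probes and had 14.93, 14.96 and 15.19 with Tc, against 14.99, 15.13 and 14.87 without. Its groups overlapped, with a change of 0.03 ± 0.15 (adjusted p = 0.904). The change turned to -0.11 without the replicate 3 arrays (adjusted p = 0.63) and to -0.10 with array weights (adjusted p = 0.51).

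Of the 17495 probes, 4715 (27.0%) passed an adjusted p of 0.05, 2321 higher (13.3%) and 2394 lower (13.7%) with Tc. Without the replicate block 1284 passed, 828 higher and 456 lower. Under the stricter rule 2470 probes (14.1%) held, 1388 higher and 1082 lower. Taking for each gene its brightest kept probe gave 9887 genes, of which 886 rose (8.96%) and 618 fell (6.25%), and these shares are the background for the gene groups below. By adjusted p alone 1435 genes were higher (14.5%) and 1342 lower (13.6%). Changes of at least 2-fold were more often rises, in 710 genes, than falls, in 415. The median change over all genes was -0.04. Between the 3 pairs the changes of the genes correlated at 0.82, 0.76 and 0.82 (Pearson, across genes that share their arrays).

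Among the largest rises were genes of epithelia, skin and other differentiated tissues, most of them dim in uninduced ES cells. Ms4a10, a membrane-spanning 4-domain family member, had the largest, with 12.78, 12.01 and 11.56 with Tc, against 7.38, 7.23 and 6.49 without, a change of 5.08 ± 0.23 or 33.9-fold (adjusted p = 3.8e-09). Cpz, a secreted carboxypeptidase that binds Wnt proteins, had 10.32, 9.81 and 9.23 with Tc, against 4.94, 5.41 and 4.83 without (4.73 ± 0.25). Its groups were wide apart, and the probe was detected on 1 of the 3 uninduced arrays. Dmkn, the epidermal secreted protein dermokine, had 11.04, 10.16 and 7.65 with Tc, against 6.24, 5.34 and 4.74 without (4.18 ± 0.59). Replicate 3 with Tc was far below the other two for Dmkn, though still above every uninduced array. Krt7, a keratin of simple epithelia and trophoblast, had 9.37, 9.55 and 8.78 with Tc, against 4.90, 5.37 and 5.15 without (4.09 ± 0.38). Casp14, the caspase of terminal skin differentiation, had 10.74, 10.83 and 10.92 with Tc, against 7.13, 6.84 and 6.98 without (3.85 ± 0.26), with little spread in either group.

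The rest of the 14 largest rises were the p53 target Fas, described below, the sorting nexin Snx20 (a log2 change of 3.83), the gut hormone secretin Sct (3.79), the synaptic vesicle protein Svop (3.70), the cartilage matrilin Matn1 (3.65), the melanosome protein Mlana (3.55), the ligand Wnt3a (3.48), the copine Cpne2 (3.39) and the limb T-box factor Tbx4 (3.37). Wnt3a was detected on none of the uninduced arrays, so its rise is a bound, at least 9.56-fold, with 9.52, 8.21 and 7.55 with Tc, against 5.20, 4.77 and 4.88 without. A bound takes, for each uninduced array, the lowest signal detected on it or the probe's own signal if higher. In all, 221 probes were detected on all 3 arrays with Tc and on none without, and 61 the other way round.

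The largest falls after Ncl were in Chac1, Ubap1l and Nupr1, each detected on all 3 uninduced arrays. Chac1, an enzyme that degrades glutathione and a target of the stress factors ATF4 and CHOP, had 7.58, 7.97 and 7.76 with Tc, against 11.76, 11.76 and 11.15 without, a change of -3.79 ± 0.22 or 13.8-fold lower (adjusted p = 2.42e-08). Its groups were separated by a wide gap. Ubap1l, a relative of a ubiquitin-binding sorting protein, had 4.92, 5.75 and 4.81 with Tc, against 8.72, 8.98 and 7.26 without (-3.16 ± 0.21) and was detected on 1 of 3 arrays with Tc. Nupr1, a small stress-induced chromatin protein, had 8.07, 8.97 and 6.53 with Tc, against 11.38, 11.88 and 9.70 without (-3.13 ± 0.42). Replicate 3 was lowest in each group, so the 3 pairs moved in parallel in spite of the spread between replicates.

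The other large falls were Cplx1, a complexin of synaptic vesicle release (-2.82), the homeodomain-only protein Hopx (-2.64), the growth factor Fgf17 (-2.54), the muscle actinin Actn3 (-2.52), the chromatin protein Bahcc1 (-2.499), the secreted Wnt inhibitor Notum (-2.48), the TGF-beta ligand Gdf1 (-2.44), the proline synthesis enzyme Aldh18a1 (-2.33), Hpdl (-2.24), a relative of an enzyme of tyrosine breakdown, and the acyl-CoA thioesterase Acot7 (-2.14). Gdf1 is known to share a transcript with Cers1, so its probe cannot be assigned to 1 of these genes alone. The change of Gdf1 was -2.44 ± 0.15, with 6.79, 6.31 and 6.11 with Tc, against 9.18, 8.77 and 8.59 without, and its groups stood clearly apart.

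**Figure D1:**
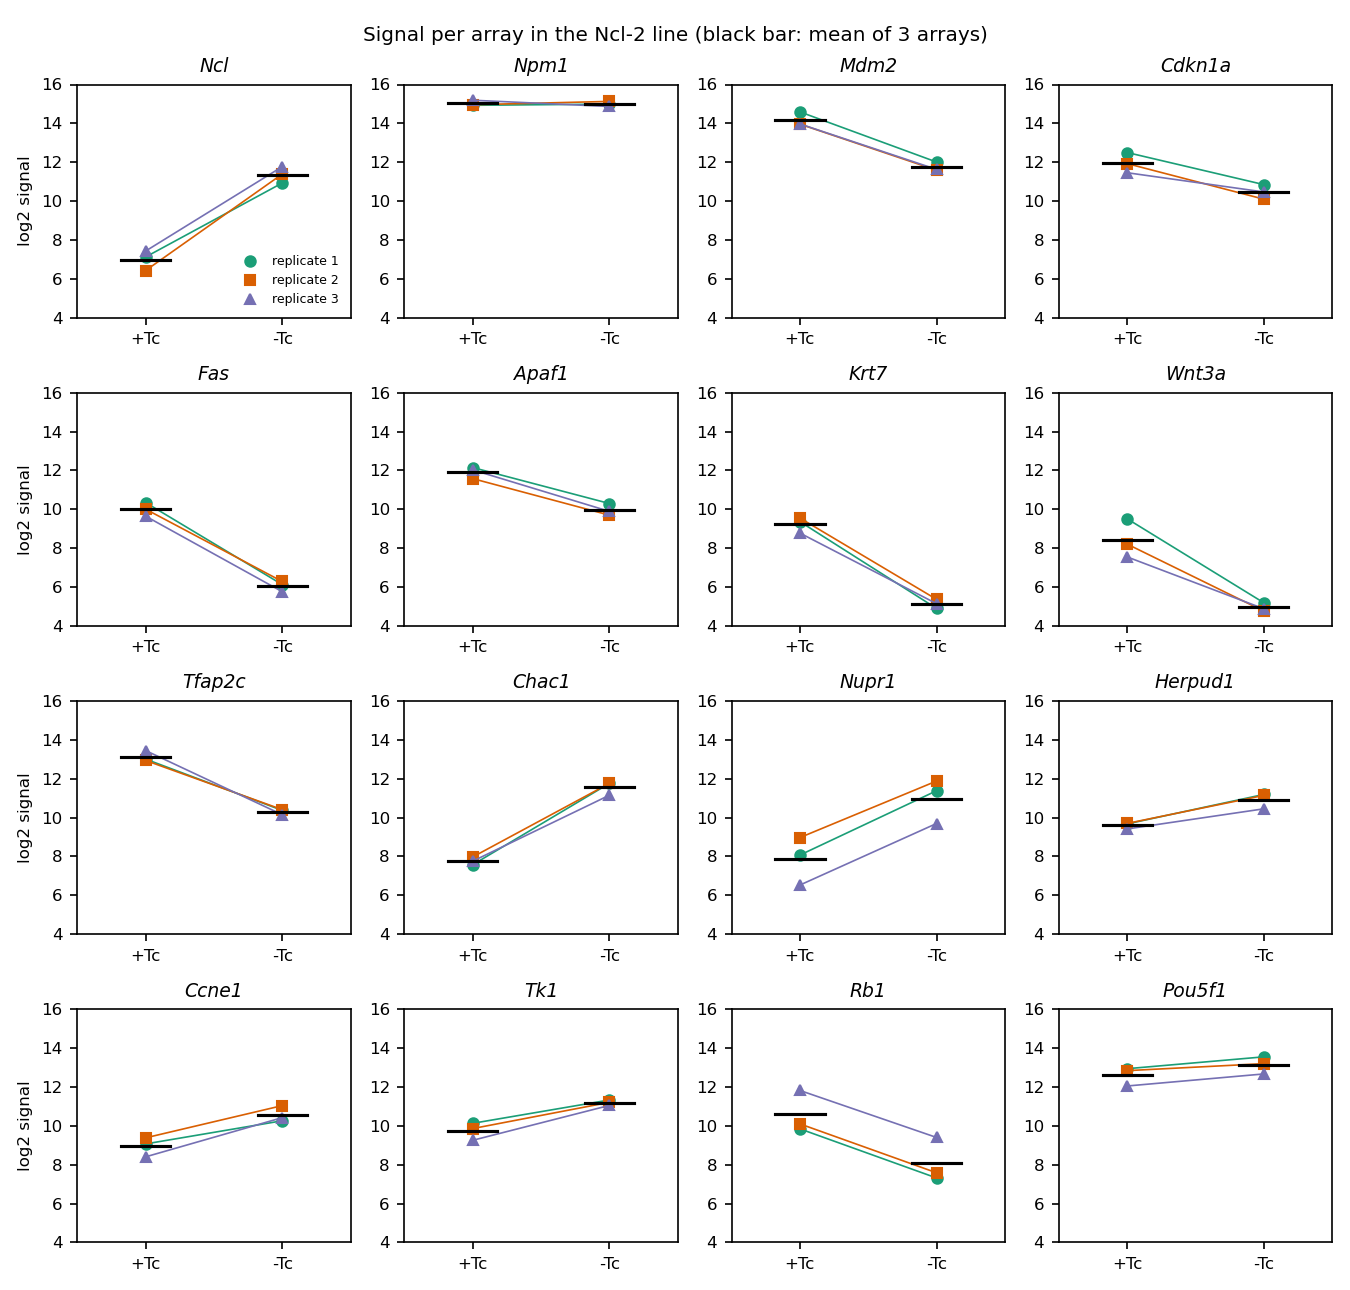
Log2 signal (vertical axis) of 16 genes on each Ncl-2 array, with Tc on the left and without Tc on the right of each panel. Points are single arrays, lines join arrays of the same replicate number and black bars are means of 3. Ncl falls by 4.37 on the log2 scale, the groups of Npm1 overlap, the p53 targets Mdm2, Cdkn1a, Fas and Apaf1 rise in all 3 pairs, and Chac1, Nupr1 and Herpud1 fall in all 3.

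Many targets of p53 rose. Of 33 measured genes of arrest, repair and feedback (35 on the array), 17 rose and 0 fell (51.5% against the background of 8.96%). The median change of the list was 0.90. These counts were 23 higher and 1 lower by adjusted p alone, 13 and 0 without the replicate block, 16 and 0 without the replicate 1 arrays, 17 and 0 without replicate 2, and 23 and 1 without replicate 3. Mdm2, the ubiquitin ligase that limits p53 in a feedback loop, had 14.59, 13.96 and 13.97 with Tc, against 12.01, 11.59 and 11.63 without, a change of 2.43 ± 0.25 (adjusted p = 3.96e-06). Cdkn1a, which encodes the cyclin-dependent kinase inhibitor p21, had 12.50, 11.93 and 11.46 with Tc, against 10.85, 10.10 and 10.47 without, a change of 1.49 ± 0.23 (adjusted p = 0.000168). Neither gene's groups overlapped. Plk2, a polo-like kinase, rose by 2.38 ± 0.18, the receptor phosphatase Ptprv by 2.52 ± 0.25, the carbonyl reductase Dcxr by 2.39 ± 0.24 and Trp53inp1, a nuclear cofactor of p53, by 1.59 ± 0.19. The DNA repair gene Xpc, chosen after its value was seen, was the one member lower by adjusted p alone (-0.48, adjusted p = 0.0345), and that p did not hold in every fit that left out an array.

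Several p53 targets of cell death rose too. Of 16 measured members (19 on the array), 8 rose (50% against 8.96%) and 0 fell, with a median change of 0.83. Of the risers, Trp53inp1, Zmat3 (adjusted p = 0.211 without the block) and Aen are in both p53 lists. These counts were 9 higher and 1 lower by adjusted p alone, 5 and 0 without the replicate block, 7 and 0 without the replicate 1 arrays, 8 and 0 without replicate 2, and 9 and 1 without replicate 3. Fas, the death receptor, had 10.35, 10.01 and 9.65 with Tc, against 6.13, 6.29 and 5.76 without, a change of 3.94 ± 0.19 or 15.4-fold (adjusted p = 3.8e-09). That was the largest rise of the list, and the probe was detected on all 6 arrays. Apaf1, the core of the apoptosome that activates caspases, had 12.15, 11.58 and 12.03 with Tc, against 10.30, 9.70 and 9.89 without (1.96 ± 0.20), and the death-domain scaffold Pidd1 changed by 1.75 ± 0.29. Bbc3, the BH3-only protein PUMA, had 11, 10.16 and 11.43 with Tc, against 9.76, 8.77 and 9.99 without (1.35 ± 0.23, adjusted p = 0.00049). Its replicates differed among themselves almost as much as the groups did, and without the replicate block its adjusted p was 0.0917. Among 19 measured regulators of apoptosis and caspases, 1 rose (5.26%, below the 8.96% of all genes), the epidermal Casp14, and 0 fell, with a list median of -0.20.

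The Cdkn1a promoter, shown because this gene is the best known arrest target of p53 and rose here, is given as the 250 bases before its start in RefSeq (build GRCm38.p6), with the match to the p53 response element consensus in capitals. The match runs from 73 to 42 bases before the start and includes the spacer between the half-sites.

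Cdkn1a, chr17:29090729-29090978 (+ strand): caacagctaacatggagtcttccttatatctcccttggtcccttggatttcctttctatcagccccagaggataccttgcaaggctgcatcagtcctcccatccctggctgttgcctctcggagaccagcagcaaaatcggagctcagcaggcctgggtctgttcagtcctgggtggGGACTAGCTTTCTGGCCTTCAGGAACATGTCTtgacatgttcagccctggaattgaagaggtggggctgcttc

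The consensus, 2 decamer half-sites up to 13 bases apart on either strand, is in 0.0666% of the 27025 genes with a promoter in the table. Of the members with a promoter there, Cdkn1a was the one match among 25 of the arrest list, and 0 of 12 of the death list had one.

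Several genes of S phase entry and DNA replication fell. Among 26 measured G1 and S entry genes, 2 rose and 7 fell (26.9% against 6.25% of all genes), with a median of -0.26. These counts were 2 higher and 8 lower by adjusted p alone, 1 and 3 without the replicate block, 2 and 5 without the replicate 1 arrays, 2 and 6 without replicate 2, and 2 and 8 without replicate 3. Of 51 measured replication genes, 0 rose and 8 fell (15.7%), with a median of -0.45. Ccne1, Ccne2 and Cdt1 (adjusted p = 0.556 without the block) are fallers of both lists. The replication counts were 0 higher and 22 lower by adjusted p alone, 0 and 4 without the replicate block, 0 and 7 without the replicate 1 arrays, 0 and 9 without replicate 2, and 0 and 22 without replicate 3. The 22 lower by adjusted p alone became 11 without the Ncl-2 array of replicate 1 with Tc and 12 without that of replicate 2 without Tc. Ccne1, the cyclin that drives S phase entry with Cdk2, had 9.07, 9.38 and 8.40 with Tc, against 10.26, 11.04 and 10.42 without, a change of -1.62 ± 0.20 (adjusted p = 2.26e-05), and Ccne2 changed by -1.59 ± 0.20. Tk1, the thymidine kinase made in S phase, had 10.13, 9.86 and 9.26 with Tc, against 11.33, 11.21 and 11.05 without (-1.45 ± 0.18). The origin firing factor Gins2 changed by -1.37 ± 0.21 (adjusted p = 0.0595 without the block), and the polymerase alpha subunit Pola2 by -1.05 ± 0.17. The D-type cyclin Ccnd3 changed by -0.84 ± 0.19.

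The 2 risers of the G1 list were Cdkn1a and Rb1, both brakes on S phase entry. Rb1, which encodes the retinoblastoma protein that holds E2F factors inactive, had 9.84, 10.10 and 11.82 with Tc, against 7.32, 7.58 and 9.40 without, a change of 2.49 ± 0.23 (adjusted p = 1.6e-06). Replicate 3 lay well above the others in both groups, so the pairs moved in parallel while the replicates of a group did not agree, and without the block the adjusted p was 0.179. Genes of G2 and mitosis had few calls. Of 50 measured, 0 rose and 0 fell under limma, with 0 higher and 6 lower by adjusted p alone and a median of -0.10. Aurkb, the mitotic kinase Aurora B, had the smallest p among these at a change of -0.48 ± 0.15 (adjusted p = 0.024). Whether this list differs from the replication list was not tested. Histone genes, 51 measured, had 0 rises and 0 falls and a median of 0.25, which was -0.01 without the Ncl-2 array of replicate 3 with Tc, 0.38 without that of replicate 1 with Tc, 0.13 without that of replicate 1 without Tc and 0.40 without that of replicate 3 without Tc.

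Several genes of the stress responses fell. The integrated stress response raises ATF4, which activates genes of amino acid supply through an 8-letter element, and the unfolded protein response raises chaperones of the endoplasmic reticulum (ER) through a separate element. Of 45 measured members of both, 1 rose and 7 fell (15.6% against 6.25%), with a median of -0.27. These counts were 6 higher and 13 lower by adjusted p alone, 0 and 5 without the replicate block, 0 and 5 without the replicate 1 arrays, 1 and 5 without replicate 2, and 5 and 13 without replicate 3. Besides Chac1 and Nupr1 the fallen members included Herpud1, an ER protein of protein degradation, with 9.67, 9.70 and 9.41 with Tc, against 11.19, 11.14 and 10.45 without (-1.33 ± 0.19). The arginine transporter Slc7a3 had 11.56, 11.98 and 12.53 with Tc, against 13.12, 13.13 and 13.22 without (-1.13 ± 0.19), and the phosphatase subunit Ppp1r15b changed by -0.83 ± 0.15 (adjusted p = 0.0561 without the block). The riser was Eif2ak3, the ER stress kinase PERK (0.97 ± 0.22, adjusted p = 0.122 without the block). Other well known members, chosen after their values were seen, did not pass, namely Atf4 itself (-0.12, adjusted p = 0.731), Ddit3, which encodes CHOP (0.4951, adjusted p = 0.448), Trib3 (-0.06, adjusted p = 0.877) and Asns (-0.21, adjusted p = 0.498). Vldlr, the ER chaperone Pdia4 and Atf3 had changes of -1.24, -0.57 and 1.33 that passed by adjusted p alone (0.0441, 0.0441 and 0.0389).

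The promoters of the 3 fallen genes that carry the ATF4 element are given beside that of Hspa5, the main ER chaperone BiP, which carries the ER stress element. Each is the 250 bases before the RefSeq start (build GRCm38.p6), 5′ to 3′ on the gene's strand, with the element in capitals.

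Chac1, chr2:119350992-119351241 (+ strand): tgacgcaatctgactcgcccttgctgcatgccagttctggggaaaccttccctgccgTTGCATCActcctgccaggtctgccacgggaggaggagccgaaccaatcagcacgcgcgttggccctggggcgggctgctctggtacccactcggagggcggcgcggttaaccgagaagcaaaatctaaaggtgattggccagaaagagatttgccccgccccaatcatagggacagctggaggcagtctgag

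Nupr1, chr7:126625471-126625720 (- strand): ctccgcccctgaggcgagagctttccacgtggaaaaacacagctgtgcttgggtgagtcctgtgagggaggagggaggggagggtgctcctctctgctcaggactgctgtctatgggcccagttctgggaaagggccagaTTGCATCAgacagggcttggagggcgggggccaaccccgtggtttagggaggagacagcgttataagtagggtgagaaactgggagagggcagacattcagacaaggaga

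Herpud1, chr8:94386179-94386428 (+ strand): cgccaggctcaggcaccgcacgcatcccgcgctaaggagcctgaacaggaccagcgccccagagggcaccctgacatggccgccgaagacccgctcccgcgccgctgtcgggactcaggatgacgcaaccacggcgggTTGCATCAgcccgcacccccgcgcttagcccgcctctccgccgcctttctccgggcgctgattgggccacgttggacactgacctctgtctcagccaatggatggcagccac

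Hspa5, chr2:34771840-34772089 (+ strand): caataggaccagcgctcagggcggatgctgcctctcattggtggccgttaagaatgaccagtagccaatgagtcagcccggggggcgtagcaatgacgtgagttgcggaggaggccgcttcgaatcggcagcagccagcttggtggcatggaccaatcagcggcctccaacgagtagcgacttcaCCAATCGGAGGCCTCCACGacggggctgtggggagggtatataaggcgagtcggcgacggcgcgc

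The ATF4 element searched was TTGCATCA on either strand, and the ER stress element was CCAAT, then any 9 bases, then CCACG. The first is in 0.918% of 27025 promoters and in 5 of the 40 members of the list with a promoter, Chac1, Herpud1 and Nupr1, which fell, and Atf3 and Vldlr, which neither rose nor fell under the stricter rule. It is also in the p53 target Gadd45g, which rose, and in Sfn, Insig2 and Orc2, which did neither. The second is in 0.13% of promoters and in 9 of the 40, of which 0 rose and 0 fell under that rule (Calr, Creld2, Derl3, Dnajc3, Ero1b, Hsp90b1, Hspa5, Pdia6 and Syvn1). No other form of the ER stress element was searched, so genes outside these 9, Herpud1 among them, may carry one. Hspa5 had 5.99, 5.12 and 6.17 with Tc, against 4.87, 5.59 and 6.98 without, so its groups overlapped close to the detection limit, where a change is hard to measure, and the estimate was -0.05 ± 0.28 (adjusted p = 0.913). Of the 9 with the searched form, by adjusted p alone, Dnajc3 was lower (-0.81), Ero1b was lower (-0.65) and Syvn1 was higher (0.55). The E2F patterns TTTCCCGC (1.03% of promoters) and TTTCGCGC or TTTGGCGC (0.759%) were in 4 and 5 of the 43 replication genes with a promoter, of which 1 fell (Cdc6, with the first, adjusted p = 0.299 without the block). They were in 3 and 3 of the 18 G1 and S entry genes with a promoter, of which 2 fell, both with the second. These were Cdc25a (adjusted p = 0.643 without the block) and Tfdp1 (adjusted p = 0.322 without the block). The other patterns were TGCATCA, which is part of the ATF4 element (3.1%) and is also in Cdkn1a, which rose, CCAAT, which is part of the ER stress element (37.5%), and a sterol regulatory element (0.0814%), which was in 0 genes of the 7 lists. In all, 8 patterns were searched in 7 lists, chosen after the lists' values were seen, and a match describes letters only.

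Several enzymes that make serine, folate carbon units and proline fell. Of 21 measured, 3 rose and 6 fell (28.6% against 6.25%), with a median of -0.39. These counts were 4 higher and 8 lower by adjusted p alone, 3 and 4 without the replicate block, 3 and 6 without the replicate 1 arrays, 3 and 6 without replicate 2, and 4 and 10 without replicate 3. Phgdh, the first enzyme of serine synthesis, had 8.11, 9.003 and 6.94 with Tc, against 10.08, 10.46 and 8.59 without (-1.70 ± 0.26, adjusted p = 0.0896 without the block), Psat1, the second, changed by -1.80 ± 0.29, and Shmt2, which moves a carbon from serine to folate in mitochondria, by -1.15 ± 0.19. Phgdh was low in replicate 3 of both groups, and each pair fell. Mthfd2, the mitochondrial folate enzyme, had 10.53, 10.37 and 9.60 with Tc, against 12.17, 12.05 and 11.08 without (-1.60 ± 0.22), and Aldh18a1, which starts proline synthesis from glutamate, had 7.53, 8.06 and 7.58 with Tc, against 10.22, 10.38 and 9.56 without (-2.33 ± 0.17, adjusted p = 1.85e-07). The 3 risers were of another kind in part, since Aldh4a1 breaks proline down (1.44 ± 0.20) and Aldh1l1 oxidises formyl folate (2.51 ± 0.22), while Mthfd1 is the cytosolic folate enzyme (0.77 ± 0.15). Aldh1l1 had 8.98, 8.95 and 8.24 with Tc, against 6.40, 6.24 and 5.999 without, with no overlap between groups.

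Of 33 measured genes of sterol and fatty acid synthesis, 2 rose and 6 fell (18.2%), with a median of -0.33. The counts were 3 higher and 13 lower by adjusted p alone, 1 and 1 without the replicate block, 3 and 3 without the replicate 1 arrays, 2 and 8 without replicate 2, and 3 and 10 without replicate 3. The desaturase Scd2 had 6.58, 7.39 and 7.06 with Tc, against 8.55, 8.86 and 8.43 without (-1.60 ± 0.24), the sterol demethylase Cyp51 changed by -1.54 ± 0.27 (adjusted p = 0.0769 without the block), and the feedback regulator Insig1, chosen after its value was seen, by -1.01 ± 0.21 (adjusted p = 0.22 without the block). The risers were Scap, the escort of the sterol-regulated SREBP factors (1.55 ± 0.27), and Lpin1, a phosphatidate phosphatase (1.58 ± 0.20, adjusted p = 0.126 without the block).

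Genes that build ribosomes showed few calls under the stricter rule. Of 73 measured ribosome biogenesis factors, 0 rose and 6 fell (8.22% against 6.25%), with a median of -0.32 (-0.04 over all genes). By adjusted p alone 2 were higher and 18 lower, the latter 24.7% against 13.6% of all genes. These counts were 0 and 1 without the replicate block, 0 and 4 without the replicate 1 arrays, 0 and 3 without replicate 2, and 0 and 11 without replicate 3. Without the Ncl-2 array of replicate 1 with Tc 8 were lower by adjusted p, and without that of replicate 3 without Tc 9. The largest of the falls was in Senp3, a nucleolar SUMO protease, with 12.23, 12.24 and 11.89 with Tc, against 13.35, 13.30 and 12.97 without (-1.08 ± 0.16, adjusted p = 0.051 without the block), followed by the assembly factors Urb2 (-0.87 ± 0.18) and Riok1 (-0.78 ± 0.15, adjusted p = 0.266 without the block). Of 19 measured genes of RNA polymerase I transcription, 0 rose and 2 fell (10.5% against 6.25%). These were the topoisomerase Top1 (-0.82 ± 0.18, adjusted p = 0.0505 without the block) and Myc (-1.21 ± 0.28, adjusted p = 0.232 without the block), which encodes a transcription factor of growth and ribosome synthesis. Cytosolic ribosomal proteins, 51 measured, had 0 rises and 0 falls under limma, 2 lower by adjusted p alone (Rpl22 at -0.47 and Rpl13a at -0.69), a median of 0.07 and a range from -0.69 to 0.41. Mitochondrial ribosomal proteins had 3 falls among 73 (4.11%, below the 6.25% of all genes), and the respiratory chain had 0 rises and 0 falls among 61.

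The core pluripotency factors changed by less than 1 log2 unit. Pou5f1, Nanog and Sox2, the transcription factors at the centre of the ES cell state, had log2 changes of -0.53 ± 0.18, 0.22 ± 0.22 and 0.60 ± 0.18. Pou5f1 had 12.94, 12.84 and 12.05 with Tc, against 13.55, 13.20 and 12.67 without, and Sox2 had 11.37, 11.40 and 9.82 with Tc, against 10.79, 10.54 and 9.47 without. The groups overlapped in all 3 genes. The adjusted p was 0.0427 for Pou5f1 and 0.024 for Sox2, neither of which held in every fit that left out an array, and 0.496 for Nanog. Of 33 measured members of the list, 3 rose and 2 fell, close to the background, with a median of -0.07. The risers were Fbxo15, an ES cell F-box gene (1.34 ± 0.19), the TGF-beta ligand Nodal (1.30 ± 0.21) and Dppa3, the germ cell and early embryo factor Stella (2.28 ± 0.39). The fallers were Lin28a, which blocks let-7 maturation, with 7.29, 6.997 and 7.77 with Tc, against 8.55, 8.97 and 9.38 without (-1.61 ± 0.23), and Tcl1, a cofactor of Akt, chosen after its value was seen (-1.35 ± 0.22, adjusted p = 0.155 without the block). In the LIF and BMP response, Fos (2.62 ± 0.26) and Id2 (1.95 ± 0.26) rose and Gbx2 fell (-1.29 ± 0.24) among 18 measured genes. These shares, 11.1% risen and 5.56% fallen, were near the background of 8.96% and 6.25%.

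Many transcripts of the two-cell embryo rose. Of 24 listed genes on the array 15 passed detection, and of these 9 rose and 0 fell (60.0% against 8.96%), with a median of 1.85. Members detected only with Tc had to be higher, so the count among those detected in both groups is given too, 6 of 11, beside 7.72% of all genes detected in both. The counts were 12 higher and 0 lower by adjusted p alone, 8 and 0 without the replicate block, 8 and 0 without the replicate 1 arrays, 8 and 0 without replicate 2, and 12 and 0 without replicate 3. Ddit4l, an inhibitor of mTOR signalling, had 12, 11.97 and 12.16 with Tc, against 9.09, 8.93 and 9.68 without (2.81 ± 0.19, adjusted p = 6.89e-08). Dppa3 had 10.05, 9.48 and 8.64 with Tc, against 7.56, 7.56 and 6.22 without and the arginase Arg2 changed by 1.93 ± 0.33 (adjusted p = 0.149 without the block). The zinc finger gene Zfp809 changed by 1.09 ± 0.19 and Tdpoz2 by 2.09 ± 0.38. Tdpoz2 belongs to a family of near-identical copies, as do Zscan4c and Tcstv1, so a probe may report several of them. Zscan4c, the gene best known from this state and chosen after its value was seen, had 14.37, 13.88 and 12.43 with Tc, against 12.65, 11.87 and 10.81 without, a change of 1.78 ± 0.54 whose adjusted p of 0.0229 did not hold when an array was left out.

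**Figure D2:**
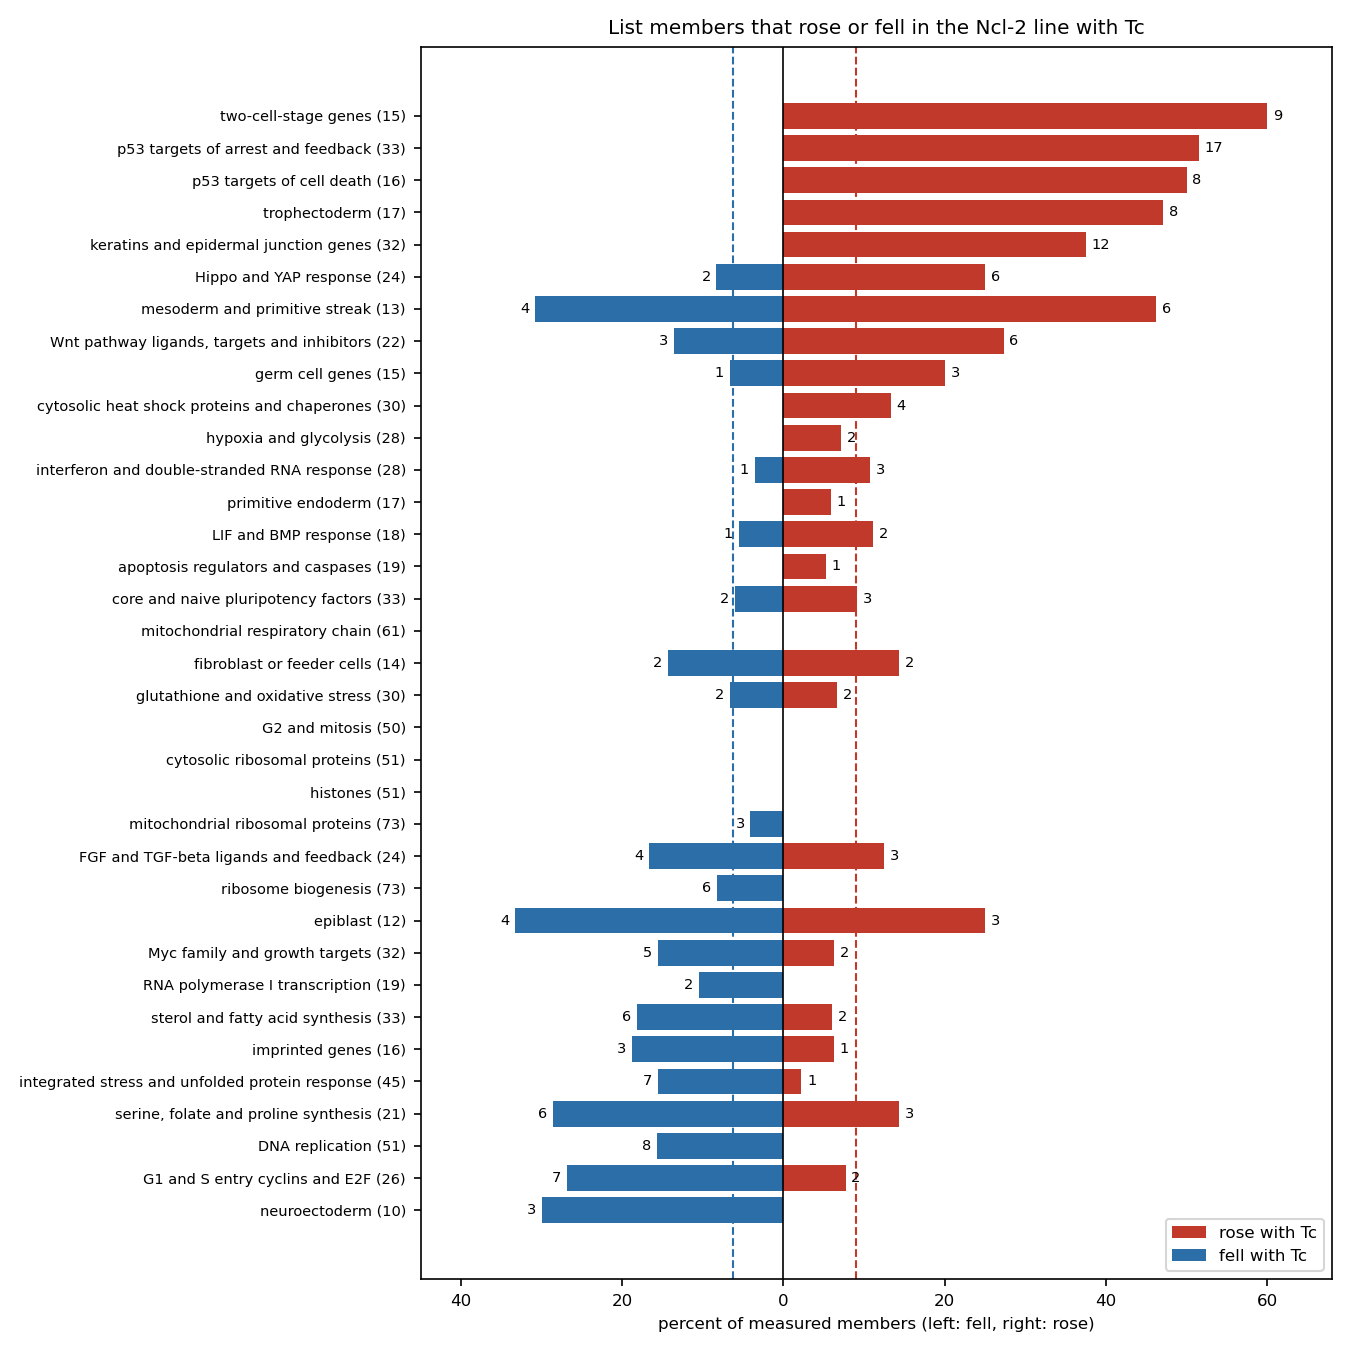
Share of the measured members of each of 35 gene lists (horizontal axis, percent) that rose with Tc (red, to the right) or fell (blue, to the left) under the rule that an adjusted p below 0.05 holds in all fits. Numbers beside bars are genes, numbers in parentheses are measured members, and dashed lines are the shares over all 9887 genes, 8.96% higher and 6.25% lower.

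Several genes of the trophectoderm, the outer layer of the blastocyst that forms the placenta, rose as well. Of 17 measured (29 on the array), 8 rose and 0 fell (47.1% against 8.96%). Of the 11 detected in both groups 5 rose, beside 7.72% of all genes detected in both. The median was 0.85, and the counts were 9 higher and 0 lower by adjusted p alone, 7 and 0 without the replicate block, 5 and 0 without the replicate 1 arrays, 8 and 0 without replicate 2, and 12 and 0 without replicate 3. The summed signal of the list was 13716 to 18285 with Tc, against 2858 to 3457 without. With Tc a large part of this sum came from 1 gene, Tfap2c. Tfap2c, a transcription factor of trophoblast and germ cells, had 13.01, 12.94 and 13.45 with Tc, against 10.37, 10.41 and 10.15 without (2.82 ± 0.30, adjusted p = 6.46e-06). Its groups lay more than 2 log2 units apart. Sox21 changed by 1.41 ± 0.26, and Ascl2, the factor that maintains trophoblast of the placenta, by 1.21 ± 0.24. Wnt7b was detected on none of the uninduced arrays, and rose at least 4.05-fold, with 8.55, 6.78 and 6.22 with Tc, against 4.97, 4.54 and 4.48 without. The placental genes Prl2c2, Tpbpa and Rhox6 were detected on none of the 6 arrays. Cdx2, Eomes, Elf5, Gata3 and Hand1 of the list were not among its measured members, and Tead4, Krt8 and Krt18 neither rose nor fell. The part of other cell types in the results was not tested.

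Several keratins and epidermal junction genes rose. Of 32 measured (47 on the array), 12 rose and 0 fell (37.5% against 8.96%), with a median of 0.70. Of the 26 detected in both groups 8 rose, beside 7.72% of all genes detected in both. The keratins that rose were Krt7, Krt13, Krt15 and Krt19, while Krt8, Krt14, Krt17, Krt18 and Krt23 neither rose nor fell. Krt42 was the 1 gene lower by adjusted p alone. The counts were 15 higher and 1 lower by adjusted p alone, 9 and 0 without the replicate block, 9 and 0 without the replicate 1 arrays, 10 and 0 without replicate 2, and 14 and 1 without replicate 3. Krt13 was detected on none of the uninduced arrays and rose at least 3.23-fold. The cornified envelope linker Ppl had 7.91, 7.68 and 7.41 with Tc, against 6.26, 6.25 and 5.98 without (1.505 ± 0.21), and the placental cadherin Cdh3 had 9.49, 9.62 and 10.08 with Tc, against 8.35, 8.23 and 8.32 without (1.43 ± 0.20). Both genes' groups were clearly separated. Within the list the log2 changes ran from -0.68 to 4.09, the highest being Krt7.

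Mesoderm and epiblast lists had members that rose and members that fell. Of 30 mesoderm and primitive streak genes on the array 13 passed detection, 4 of them in both groups, and 6 rose and 4 fell. Members detected in 1 group alone had to differ, and of the 4 detected in both 1 rose and 2 fell. Wnt3a, Wnt5a, Lhx1, Sp5 (adjusted p = 0.119 without the block), Gsc and Snai1 (adjusted p = 0.211 without the block) rose, while Meox1, Lmo2, Fgf17 and Isl1 fell. Wnt5a was detected on 1 of 3 uninduced arrays and had 7.09, 7.54 and 8.29 with Tc, against 4.94, 4.69 and 5.17 without (2.71 ± 0.31), and Meox1, a factor of the somites, had 4.55, 5.12 and 4.56 with Tc, against 6.94, 6.89 and 6.63 without (-2.08 ± 0.18) and was detected on 1 of 3 arrays with Tc. The summed signal of this list was 1132 to 1862 with Tc and 1115 to 1756 without, so the groups overlapped, and Mixl1, Fgf8, Tal1 and 5 others were detected on no Ncl-2 array. Of 12 epiblast genes 3 rose (25% against 8.96%) and 4 fell (33.3% against 6.25%), and of the 9 detected in both groups 2 rose and 2 fell. Among them Nodal and the junction protein Cldn6 (1.68 ± 0.28) were up. Fgf15 (-1.995 ± 0.40, adjusted p = 0.0557 without the block) and the carbonic anhydrase Car14 (-1.72 ± 0.28) were down. Fgf5, the textbook epiblast marker, was detected on no Ncl-2 array. Of 10 neuroectoderm genes 0 rose and 3 fell (30% against 6.25%), the neuronal stathmin Stmn2 (-1.48 ± 0.23), Gbx2 and the homeobox gene Meis2 (-0.59 ± 0.14). The summed signal of that list was 8079 to 10700.3 with Tc, against 17381 to 20353 without.

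Several Wnt ligands rose, most of them detected on all 3 arrays only with Tc, and several Wnt inhibitors fell. In the Wnt list 22 of 36 genes passed detection, and 6 rose (27.3% against 8.96%) and 3 fell (13.6% against 6.25%). Members detected only with Tc had to be higher, and those detected only without it lower. Of the 11 detected in both groups 1 rose and 2 fell, beside 7.72% and 5.72% of all genes detected in both. The counts were 7 higher and 5 lower by adjusted p alone, 4 and 3 without the replicate block, 4 and 3 without the replicate 1 arrays, 6 and 3 without replicate 2, and 7 and 4 without replicate 3. The risers were the ligands Wnt3a, Wnt5a, Wnt6 (adjusted p = 0.0516 without the block), Wnt7b and Wnt8a and the Wnt target Sp5. The fallers were Notum, which strips the lipid from Wnt proteins, the receptor decoy Sfrp1 and Nkd2, an inhibitor inside the cell. Fzd7 and Axin2, chosen after their values were seen, were lower by adjusted p alone. Wnt8a was detected on none of the uninduced arrays and rose at least 4.05-fold, with 8.46, 6.80 and 6.30 with Tc, against 4.74, 4.84 and 4.74 without. Notum had 6.88, 6.03 and 7.35 with Tc, against 9.05, 8.80 and 9.85 without (-2.48 ± 0.31), and Nkd2 changed by -1.54 ± 0.26. Of these ligands, Wnt3a, Wnt7b and Wnt8a were all highest in replicate 1 with Tc and lowest in replicate 3. Among 24 FGF and TGF-beta genes 3 rose (12.5% against 8.96%) and 4 fell (16.7% against 6.25%). The counts were 3 higher and 7 lower by adjusted p alone, 2 and 1 without the replicate block, 3 and 4 without the replicate 1 arrays, 3 and 5 without replicate 2, and 3 and 8 without replicate 3. Tgfb1 (-1.77 ± 0.24, adjusted p = 0.0794 without the block), Fgf17 (-2.54 ± 0.34) and Spry4, a feedback inhibitor of FGF signalling (-1.35 ± 0.24, adjusted p = 0.0885 without the block), fell, and the FGF carrier Fgfbp1 rose (2.84 ± 0.53).

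In the Hippo and YAP list 6 rose (25%, against a background of 8.96%) and 2 fell (8.33%, against 6.25%) among 24 measured. By adjusted p alone the counts were 10 higher and 3 lower. These became 7 and 1 without the replicate block, 7 and 1 without the replicate 1 arrays, 7 and 2 without replicate 2, and 9 and 2 without replicate 3. The receptor kinase Axl had 9.81, 8.98 and 8.49 with Tc, against 6.23, 6.29 and 5.48 without (3.10 ± 0.27, adjusted p = 7.73e-07), the phosphatase Ptpn14, a YAP inhibitor, changed by 2.53 ± 0.26, the cofactor Vgll3 by 2.14 ± 0.25, and Ccn2, the YAP target also called CTGF, by 2.08 ± 0.30. Axl rose in all 3 pairs with no overlap. Ccn2 is also in the fibroblast list, of which 14 of 31 passed detection, 2 rose and 2 fell (14.3% each, against 8.96% and 6.25%). The defining collagen genes Col1a2 and Col3a1 of that list, with Postn, Lum and Dcn, were detected on no Ncl-2 array. The summed signal of that list was 12934 to 20295 with Tc, against 9131 to 13223 without, so the groups overlapped. Among 30 heat shock genes 4 rose (13.3% against 8.96%) and 0 fell, while the list median was -0.24. The counts were 7 higher and 2 lower by adjusted p alone, 4 and 0 without the replicate block, 4 and 0 without the replicate 1 arrays, 4 and 1 without replicate 2, and 7 and 2 without replicate 3. Hspa1a, which is nearly identical to Hspa1b and may share its probe, had 9.20, 8.59 and 8.06 with Tc, against 7.18, 5.89 and 6.30 without (2.16 ± 0.21), and the small heat shock protein Cryab had 10.20, 10.07 and 8.37 with Tc, against 7.08, 7.16 and 6.43 without (2.65 ± 0.45). The collagen chaperone Serpinh1 changed by 1.63 ± 0.30 and Hspb8 by 1.47 ± 0.33.

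Of 28 measured interferon and double-stranded RNA response genes (42 on the array), 3 rose (10.7%) and 1 fell (3.57%), with a median of 0.26. The background was 8.96% and 6.25%. Members detected only with Tc had to be higher, and of the 21 detected in both groups 0 rose and 1 fell. By adjusted p alone the counts were 8 higher and 2 lower. These became 3 and 1 without the replicate block, 4 and 1 without the replicate 1 arrays, 2 and 1 without replicate 2, and 8 and 2 without replicate 3. The peptide transporter Tap1 had 9.13, 8.65 and 7.58 with Tc, against 6.18, 5.83 and 4.81 without (2.85 ± 0.23), while Usp18 and Xaf1, detected on none of the uninduced arrays, rose at least 1.55-fold and 1.26-fold (adjusted p of Xaf1 = 0.0515 without the block). The RNA sensor Ddx58 fell (-1.34 ± 0.25). Of 16 imprinted genes 1 rose (6.25%) and 3 fell (18.8%), and of the 14 detected in both groups 0 rose and 3 fell. The falls were in the growth inhibitor adaptor Grb10, with 11.39, 11.98 and 11.42 with Tc, against 13.11, 13.30 and 13.20 without (-1.61 ± 0.19), Phlda2 (-1.41 ± 0.19) and Dlk1 (-1.37 ± 0.22), and the rise was in Ascl2. Of 30 antioxidant genes 2 rose and 2 fell (6.67% each, near the background). They were the glutathione peroxidases Gpx3 (3.03 ± 0.20) and Gpx2 (1.24 ± 0.25), and Chac1 and the transferase Gstt1 (-1.38 ± 0.28). In the hypoxia and glycolysis list 2 rose (7.14%, below the background of 8.96%) and 0 fell among 28. The rises were Pfkfb4 (2.12 ± 0.25) and the mTOR inhibitor Ddit4 (1.57 ± 0.29, adjusted p = 0.138 without the block). Of 15 germ cell genes 3 rose (20% against 8.96%) and 1 fell (6.67% against 6.25%), with Rec8, the meiotic cohesin, at 1.93 ± 0.32 and Mov10l1, a piRNA factor, at -1.42 ± 0.19. Of 17 primitive endoderm genes 1 rose (5.88%, below the background of 8.96%) and 0 fell, the riser being Krt19 (2.31 ± 0.47). Of the 14 detected in both groups 0 rose and 0 fell. By adjusted p alone 4 of the 17 were higher (23.5% against 14.5%) and 1 lower (5.88% against 13.6%). These counts were 1 and 0 without the replicate block, and the higher count ran from 1 to 4 with 1 array left out. The list median was 0.50, against -0.04 over all genes. Its summed signal was 15537 to 20738 with Tc, against 12646 to 13847 without, so these groups did not overlap. In the Myc list 2 rose (6.25% against 8.96%) and 5 fell (15.6% against 6.25%) among 32. The fallers there include Ncl itself, and Mxd4, an antagonist of Myc, rose (1.23 ± 0.24).

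**Figure D3:**
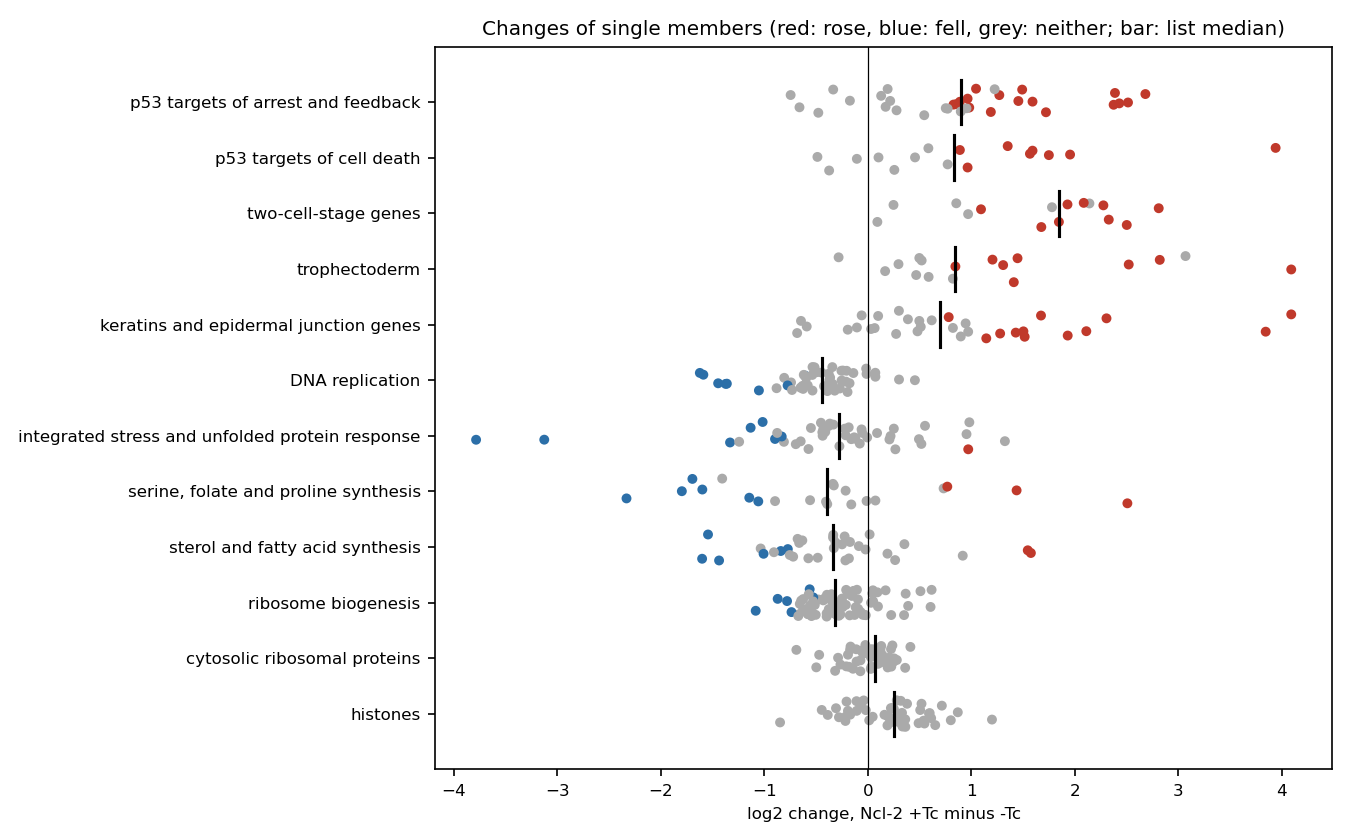
Log2 change with Tc in the Ncl-2 line (horizontal axis) of each measured member of 12 gene lists. Red points rose, blue points fell and grey points did neither, and black bars are list medians. The p53, two-cell, trophectoderm and keratin lists lie mostly to the right of 0, the replication and metabolic lists lie mostly to its left, and cytosolic ribosomal proteins lie close to it.

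The EGFP line showed what Tc and an siRNA without a mouse target did over the same probes. With limma 0 of 17495 probes passed in that line, 79 had an unadjusted p below 0.05, and no adjusted p was close to the threshold. With array weights 1746 passed. The log2 changes of the 9887 genes had an SD of 0.68 in the Ncl-2 line, against 0.13 in the EGFP line. The difference between the 2 responses, tested as an interaction, passed for 1779 probes, 1058 higher and 721 lower in Ncl-2, and for 672 genes higher (6.80%) and 403 lower (4.08%). Ncl, Mdm2, Cdkn1a, Fas, Krt7, Wnt3a, Tfap2c, Chac1, Nupr1 and Ccne1 were among them. Their changes in EGFP cells ran from -0.16 to 0.10. Bbc3 did not pass this test (adjusted p = 0.0776), with 1.35 in Ncl-2 and 0.40 in EGFP cells.

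Most genes that passed with the second nucleolin siRNA also passed with the first. Over the same 9887 genes 1430 were higher (14.5%) and 1209 lower (12.2%) with Tc in Ncl-1 cells by adjusted p, together 26.7%. In both lines 1931 genes passed. Of these 1931, 1930 changed in the same direction, which is 69.5% of the genes of Ncl-2 that passed and 73.1% of those of Ncl-1. The lines have separate uninduced arrays, but all arrays of a replicate number share the block. The changes correlated across genes at r = 0.90 (Spearman 0.83), given as a description, with an SD of 0.68 in Ncl-2 and 0.67 in Ncl-1, against r = 0.13 between Ncl-2 and EGFP. Ncl changed by -4.37 in Ncl-2 and -4.67 in Ncl-1, Cdkn1a by 1.49 and 1.74, Fas by 3.94 and 3.82, Chac1 by -3.79 and -3.78, and Krt7 by 4.09 and 3.44.

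The difference between the 2 nucleolin responses was itself tested, and 0 of 17495 probes passed with limma. An unadjusted p below 0.05 occurred in 520 probes, against 875 for evenly spread p-values, and the lowest adjusted p was 0.998. With array weights 3 probes passed. The median SE of the difference was 0.30 and 95% of genes differed by less than 0.61, and the absence of calls does not show that the siRNAs act alike. Some of the largest differences, chosen after their values were seen and none past the threshold, were Zfp444 (-0.61 in Ncl-2 and 0.85 in Ncl-1), the procollagen protease Bmp1 (2.14 and 0.75) and Zfp607a (0.75 and -0.61). Zfp607a is one of 13 genes whose probes were called in opposite directions in the Ncl-2 line. The medians of the arrest list were 0.90 in Ncl-2, 0.88 in Ncl-1 and 0.05 in EGFP cells, and those of the replication list -0.45, -0.41 and 0.01.

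**Figure D4:**
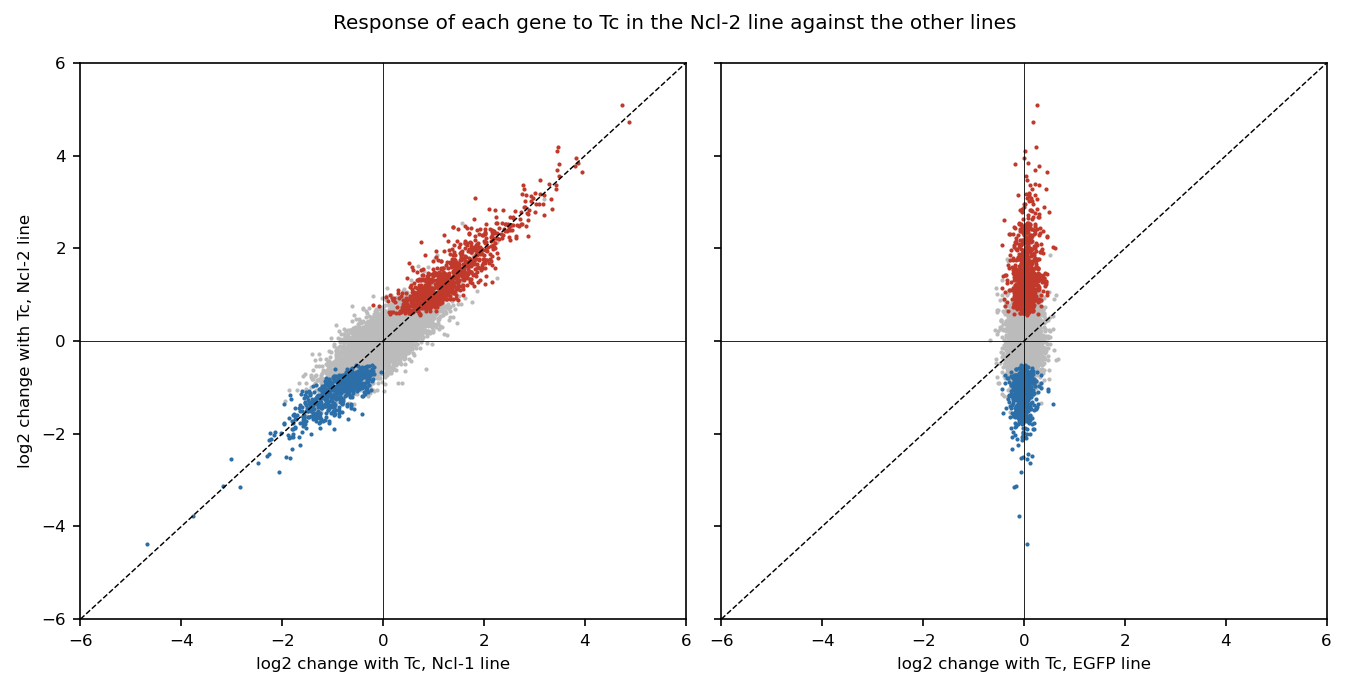
Log2 change with Tc of each of 9887 genes in the Ncl-2 line (vertical axis) against the same in the Ncl-1 line (left panel) and in the EGFP line (right panel). Red genes rose and blue genes fell in Ncl-2, grey genes did neither, and the dashed line marks equal change. Points follow the dashed line against Ncl-1 (r = 0.90) and stand in a narrow column around 0 against EGFP (r = 0.13).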

How the data were processed

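The study measured RNA on Illumina mouse BeadChips in 18 samples, 3 for each of 6 groups. Per the submitters' processing notes the probe intensities were summarised in GenomeStudio 2010.1, and the authors deposited the intensity of each probe without normalization between arrays. The deposited detection p-value of each probe, per the file headers, stands beside it. A table of normalized intensities, made by the authors in a way their notes do not state, served as an alternative.

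From the unnormalized intensities, background was corrected by normexp with negative controls inferred from the detection p-values and an offset of 16, followed by quantile normalization over 18 arrays and log2. A linear model with 6 group means and the replicate number as a block was fitted with limma 3.58.1 in R 4.3.3 to 17495 probes, and p-values were adjusted over all of them by Benjamini and Hochberg with a threshold of 0.05. The block was kept because arrays of 1 number deviated together in all 45 pairs of arrays that share a number (r of 0.38 to 0.96). Of the 45281 probes, 34885 had 1 gene symbol, 18 several and 10378 none in the platform annotation, and 34807 matched RefSeq. For a gene with several probes the kept probe of highest mean signal was used.

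The genes and 35 lists were chosen with earlier results of these data known. Named are nucleolin, nucleophosmin and a few fixed genes, the 14 largest rises and falls, and up to 5 genes a list with the smallest p. Other genes in the text, such as the remaining risers and fallers of a list, were chosen after their values were seen. The alternatives were other background corrections, normalizations, filters on dim probes, array weights, 1 probe a gene, no block, the 6 Ncl-2 arrays alone, and leaving out arrays or replicate numbers.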

Additional observations from a re-analysis of the deposited data

Results flagged for a closer look

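The response to Tc differed between the Ncl-2 and the EGFP lines for 1779 probes by limma's test of the interaction at an adjusted p of 0.05, with 1058 higher and 721 lower in Ncl-2.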

How the results depend on the processing

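Against 4715 probes called in Ncl-2 cells, 1284 passed without the replicate block, 7431 passed with array weights and 2884 genes passed with 1 probe a gene. Leaving out 1 array gave 3170 to 4999 and leaving out 1 replicate number 1837 to 4184. For the Ncl-2 minus EGFP response (1779) these counts were 225, 6564 and 1132, with 1157 to 2067 without 1 array and 260 to 1589 without 1 replicate number. For Ncl-2 minus Ncl-1 (0) the counts were 3 with array weights and 0 to 1 with arrays left out. With array weights the EGFP line, with 0 calls otherwise, had 1746. Over all gene lists 296 of 970 members passed by adjusted p, 111 without the block, 193 to 312 without 1 array and 140 to 274 without 1 replicate number. Higher calls were 49.2% of the total, 64.5% without the block, 58.9% with cyclic loess and 45.6% with 75th percentile scaling. The change of Npm1 was -0.10 with array weights and ran from -0.11 to 0.13 with arrays left out. That of Ncl ran from -4.65 to -4.08. Over 134 named genes and all alternatives, 4355 values were unchanged and 145 kept direction but no longer passed. Unchanged means the same direction and side of the threshold. For the replicate 3 pair alone, which had no test, it means a difference within the spread between pairs. From that pair alone 50 values differed by more, and 4 values changed sign, all of Npm1. Of the named genes 123 held in each fit that left out 1 array, and most were picked by that rule. Their values in those fits were set by the choice of genes and are no check. The estimation of array weights stopped short of its convergence tolerance, so those counts are rough. The cause of these differences was not tested. Signal over background limits genes detected in 1 group only, whose folds are bounds.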
